A study of Mus musculus with 10 samples.

Results

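The interleukin-1, interleukin-18 and ST2 receptor family was followed in lung eosinophils of mice without the UDP-glucose receptor P2ry14 and of wild-type mice. It was taken as 10 genes by symbol: 6 receptor genes that lie side by side on chromosome 1 (Il1r2, Il1r1, Il1rl2, Il1rl1, Il18r1 and Il18rap), the shared accessory chain Il1rap, the ligands Il18 and Il33, and the antagonist Il18bp. All 10 were among the 35725 gene rows of the count table, and all 10 passed the filter on low counts that left 15586 genes. The family was chosen by the measured genotype difference of Il18rap in these same libraries. The genotype values of its members are therefore a description, and their calls are no independent support.

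RNA was sequenced from 5 libraries of P2ry14-null males and 5 of C57BL/6J males (WT). Mice of both groups received ovalbumin (50 µg) together with a protease of Aspergillus oryzae (20 µg) in the oropharynx, and the same again a week later. They breathed an ovalbumin aerosol (1%) after 7 more days, and eosinophils were sorted from the lung 16 h later. The sources used here give neither the age of the mice, nor how the null allele was made, nor whether WT mice were littermates. Nor do they say that each library came from its own animal, so errors and p-values measure the spread between libraries, which may be technical.

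Receptors of this family pair a ligand-binding chain with an accessory chain, and the cytoplasmic TIR domains of the pair recruit the adaptor Myd88. Il1rl1 encodes ST2, which binds interleukin-33 and pairs with Il1rap, as do Il1r1 for interleukin-1 and Il1rl2 for interleukin-36. Il18r1 binds interleukin-18 and needs Il18rap to signal. Il1r2 is a decoy without a TIR domain, and Il18bp is a secreted protein that neutralises interleukin-18. Interleukin-33, stored in nuclei of epithelial and endothelial cells, is a potent activator of eosinophils in allergic airways.

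P2ry14, the targeted gene, averaged 23.2 ± 1.02 CPM (counts per 1e+06 reads, TMM-scaled) in P2ry14-null and 211 ± 16.0 CPM in WT (SD, n = 5 each). Its libraries did not overlap, and its log2 fold change was -3.19 ± 0.06 (edgeR adjusted p = 3.74e-12). Depth was 67.2 to 151 M reads (M, 1e+06) in P2ry14-null libraries and 118 to 185 M reads in WT libraries. All 8 eosinophil markers passed the filter, with a summed level of 3751 to 4110 CPM in P2ry14-null and 3629 to 4189 CPM in WT. Of the 8, 4 had a log2 fold change below 0, and 0 were called by edgeR or DESeq2. Prg3, lower in P2ry14-null (-0.43 ± 0.11), and Epx, higher (0.23 ± 0.07), had an unadjusted p under 0.05, as had 4.13% of all tested genes. P2ry14-null library 2 stood apart in genes of other cells. Its alveolar epithelial markers summed to 38.1 CPM, against 2.38 to 6.72 CPM in the other P2ry14-null and 3.72 to 5.37 CPM in WT libraries. Its class II and dendritic cell markers summed to 422 CPM, against 73.4 to 118 CPM in the other P2ry14-null and 104 to 142 CPM in WT libraries. Its alveolar macrophage markers summed to 1571 CPM, against 255 to 386 CPM in the other P2ry14-null and 321 to 546 CPM in WT libraries. Of the 7 class II and dendritic cell markers, all tested, 0 lay below 0 with this library and 5 without it. At an unadjusted p under 0.05 were 0 with it and 4 without it (all tested genes without it, 636 of 15578). In both fits 0 were called by edgeR. Several other results that rest on this library are given with and without it.

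Promoter windows of RefSeq (GRCm38.p6, the assembly behind mm10; 250 bases before to 50 after an annotated start) were found for all 10 members, 15 windows in all. The windows of Il18rap, the member that differed between the genotypes, and of Il1rl1 and Il1r2, the other members with the highest levels, are shown here. All are on the plus strand of chromosome 1, and capitals mark GATA matches (AGATAA or TGATAA on either strand). GATA factors direct the eosinophil lineage.
Il18rap, chr1:40515112-40515411: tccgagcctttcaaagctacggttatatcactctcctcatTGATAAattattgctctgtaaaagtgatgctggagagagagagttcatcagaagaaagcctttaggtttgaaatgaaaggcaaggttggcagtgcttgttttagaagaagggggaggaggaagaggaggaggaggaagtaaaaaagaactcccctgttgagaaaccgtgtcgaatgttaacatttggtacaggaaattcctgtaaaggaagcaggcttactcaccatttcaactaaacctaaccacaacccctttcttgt
Il1rl1 upstream start, chr1:40429320-40429619: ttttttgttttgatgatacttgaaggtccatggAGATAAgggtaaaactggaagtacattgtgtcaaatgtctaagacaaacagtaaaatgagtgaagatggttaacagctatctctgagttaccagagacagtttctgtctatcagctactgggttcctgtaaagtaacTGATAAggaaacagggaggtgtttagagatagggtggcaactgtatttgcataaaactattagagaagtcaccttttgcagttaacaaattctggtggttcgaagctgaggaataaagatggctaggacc
Il1rl1 downstream start, chr1:40439379-40439678: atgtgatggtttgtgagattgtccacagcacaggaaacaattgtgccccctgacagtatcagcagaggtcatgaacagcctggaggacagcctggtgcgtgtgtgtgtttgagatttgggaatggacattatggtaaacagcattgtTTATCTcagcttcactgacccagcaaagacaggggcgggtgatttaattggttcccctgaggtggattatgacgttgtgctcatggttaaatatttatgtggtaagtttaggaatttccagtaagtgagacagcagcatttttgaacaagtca
Il1r2, chr1:40085843-40086142: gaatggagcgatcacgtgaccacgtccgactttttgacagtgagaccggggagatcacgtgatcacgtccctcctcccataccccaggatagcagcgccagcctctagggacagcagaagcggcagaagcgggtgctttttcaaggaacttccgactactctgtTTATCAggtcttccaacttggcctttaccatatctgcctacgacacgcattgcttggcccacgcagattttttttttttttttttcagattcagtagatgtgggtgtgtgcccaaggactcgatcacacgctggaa
A GATA match was present in 4 of the 15 windows, those of Il18rap, Il1r2 and both of Il1rl1, and 7 members had none. Of all 32851 RefSeq windows of this length, 18.6% held one, and nothing is read from the members' share. The Il18rap match began 210 bases before the start. The Il18rap window also held the ETS core AGGAAGT, 78 bases before the start, which 9.35% of all windows held and no other member did. STAT (TTCNNNGAA, both strands) was matched in windows of Il18r1 and Il1r2, C/EBP (TTGCNNNAA) in those of Il18bp, Il1rl1 and Il33, and NF-kB in those of Il18r1, Il1r1 and Il1rap. Of all windows, 8.30% held the STAT letters, 9.56% the C/EBP letters and 50.8% the NF-kB motif. The AP-1 letters TGANTCA, held by 7.81% of all windows, were in 0 of the 15. The motifs were chosen with the windows known, windows of a gene can overlap, and a match is a description of letters only.

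Levels of the members were set beside each other as CPM per kilobase of annotated exon (GENCODE vM21). The ST2 gene Il1rl1 stood far above the rest, at 73.4 ± 2.98 CPM per kilobase in P2ry14-null and 76.5 ± 5.33 in WT (SD, n = 5 each). The decoy Il1r2 followed at 13.2 ± 4.15 in P2ry14-null and 17.6 ± 7.20 in WT. Il18rap came next at 10.6 ± 0.193 in P2ry14-null and 12.99 ± 0.467 in WT. These 3 genes made up 89.4 to 91.0% of the summed family level per kilobase in P2ry14-null and 90.1 to 91.4% in WT libraries.

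The remaining members were lower. Il18bp was at 3.71 ± 0.353 CPM per kilobase in P2ry14-null and 4.21 ± 0.464 in WT, Il1rl2 at 3.36 ± 0.241 in P2ry14-null and 3.32 ± 0.261 in WT, and Il1rap at 1.98 ± 0.111 in P2ry14-null and 1.96 ± 0.228 in WT. The ligand-binding interleukin-18 receptor chain Il18r1 had 0.847 ± 0.104 in P2ry14-null and 0.912 ± 0.0744 in WT. Il18, the interleukin-1 receptor Il1r1 and Il33 lay at the bottom, with means between 0.0664 and 0.261 CPM per kilobase. The order of the 10 means was the same in both groups. Library ranges of neighbours in this order overlapped for Il1r2 with Il18rap and for Il18 with Il1r1 in both groups. They also overlapped for Il18bp with Il1rl2 and for Il1r1 with Il33 in P2ry14-null. With the longest annotated transcript as length, Il1rl2 (5.85 in P2ry14-null, 5.78 in WT) stood above Il18bp (4.32 in P2ry14-null, 4.91 in WT), and Il1rap (4.96 in P2ry14-null, 4.94 in WT) also stood above it.

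**Figure D1:**
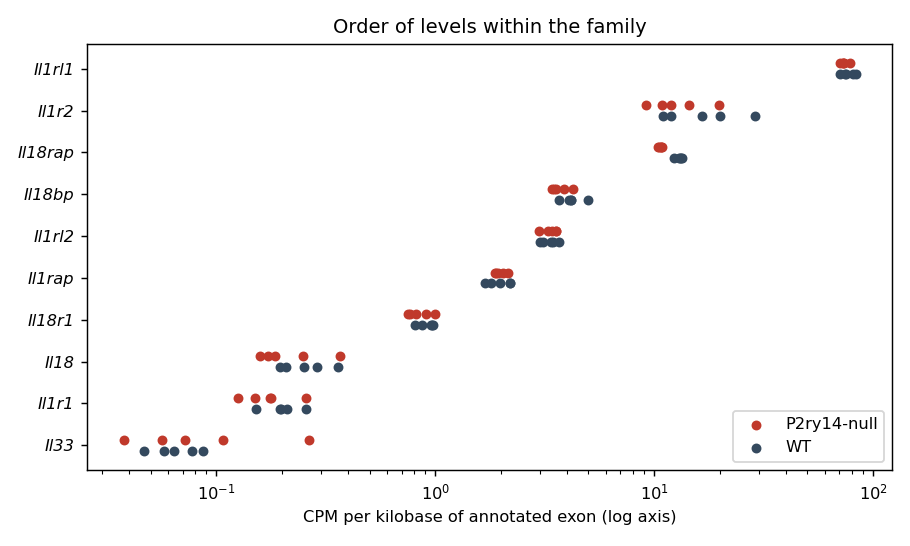
Level of each of the 10 members in CPM per kilobase of annotated exon, on a log axis, with 1 point per library (red, P2ry14-null; dark blue, WT; 5 libraries each). Il1rl1 lies at 70.0 to 83.2 in all 10 libraries, Il33 between 0.0378 and 0.265.

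The chains of 1 receptor were unequal in level. Il18rap stood 10.8 to 14.4 times above its partner Il18r1 per kilobase in P2ry14-null and 13.4 to 15.2 times in WT libraries. Il1rl1 stood 34.1 to 40.6 times above Il1rap in P2ry14-null and 35.6 to 44.5 times in WT libraries. The size of this ratio depends on the length used, and it was clearly smaller with the longest annotated transcript. By that length Il1rl1 averaged 95.5 CPM per kilobase in P2ry14-null and 99.5 in WT, and Il1rap 4.96 in P2ry14-null and 4.94 in WT. Exons that count in several transcripts are pooled here. The annotation holds 5 coding transcripts of Il1rl1 with 5 different starts, so that counts per gene do not tell the soluble from the membrane form of ST2. It holds 1 coding transcript of Il18rap. Of Il1rap exon bases 4.86% overlap the antisense gene Gm20319 and of Il18bp exon bases 2.64% overlap Numa1 on the other strand, and with no strand setting known their reads cannot be told apart there.

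Il18rap was the family member that differed by genotype. It had 70.7, 72.1, 69.8, 72.7 and 72.8 CPM in P2ry14-null libraries 1 to 5, and 90.6, 88.4, 87.2, 89.7 and 82.5 CPM in WT libraries 1 to 5. Every P2ry14-null library lay below every WT library. The mean was 71.6 ± 1.30 CPM in P2ry14-null and 87.7 ± 3.15 CPM in WT (SD, n = 5 each), and the P2ry14-null mean was 81.7% of that in WT. On the log2 scale the difference (P2ry14-null minus WT) was -0.29 ± 0.04 (SE; edgeR quasi-likelihood test, Benjamini-Hochberg adjusted p = 0.018 over all 15586 genes). This made 1 of 10 members called at an adjusted p under 0.05, where 0.0385% of all tested genes were called, 0.0128% as higher and 0.0257% as lower. It was also the 1 of 10 members whose groups did not overlap, against 0.648% of all tested genes. Both counts follow from a contrast that chose the list, and nothing is read from them. In these bulk libraries, fewer cells that express a gene and less of its RNA per cell cannot be told apart.

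The difference in Il18rap was small and its libraries were close together. Of all tested genes 1476, Il18rap included, had a fold change at least as large in size, and 6 of them were called. Among the 117 of these with a mean of at least 5 CPM, 3 were called. The SD of Il18rap within groups was 0.042 on the log2 scale, against a median of 0.091 over the 1569 genes within 0.5 log2 CPM of its level, and 51 of these (3.25%) had a smaller one. The log2 fold change ran from -0.31 to -0.27 with single libraries left out, while the adjusted p ran from 0.021 to 0.122 and was under 0.05 in 3 of the 10 fits, those without WT library 1, 3 or 5. With raw library totals in place of TMM it was -0.26 (edgeR adjusted p = 0.115).

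Several cell types other than eosinophils can carry Il18rap, and their markers are given beside it. Mast cell and basophil markers summed to 35.2 to 49.8 CPM in P2ry14-null and 51.6 to 70.7 CPM in WT libraries, with no overlap. Of the 8, 6 were tested, all 6 lay below 0 (median log2 fold change -0.61) and 0 were called by edgeR. Hdc and Cpa3 had an unadjusted p under 0.05, as had 4.13% of all tested genes. Hdc, the histidine decarboxylase that makes histamine, was called by DESeq2, which called 18 of all 15586 tested genes. Without P2ry14-null library 2, Cma1 and Kit also had an unadjusted p under 0.05 (all tested genes, 636 of 15578). All 6 again lay below 0 and 0 were called by edgeR. Hdc made up most of the sum, at 23.1 to 39.3 CPM in P2ry14-null and 39.2 to 56.7 CPM in WT. Cpa3, a mast cell and basophil protease, had 0.193 to 0.402 CPM in P2ry14-null and 0.469 to 0.667 CPM in WT, and Mcpt4 and Tpsb2 did not pass the filter. Natural killer cell markers, 6 of 6 tested, summed to 2.64 to 7.17 CPM in P2ry14-null and 3.77 to 6.42 CPM in WT, with 4 below 0. Without P2ry14-null library 2, the highest, they summed to 2.64 to 4.404 CPM in P2ry14-null. All 6 then lay below 0 (median log2 fold change -0.26), 0 were called and 1 had an unadjusted p under 0.05 (all tested genes, 636 of 15578). T cell markers, 6 of 7 found and tested, summed to 2.82 to 6.11 CPM in P2ry14-null, or 2.82 to 3.57 CPM without library 2, and to 2.75 to 3.49 CPM in WT. No list had a marker at 0 in all 10 libraries. The part of these cells in the Il18rap result was not tested.

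**Figure D2:**
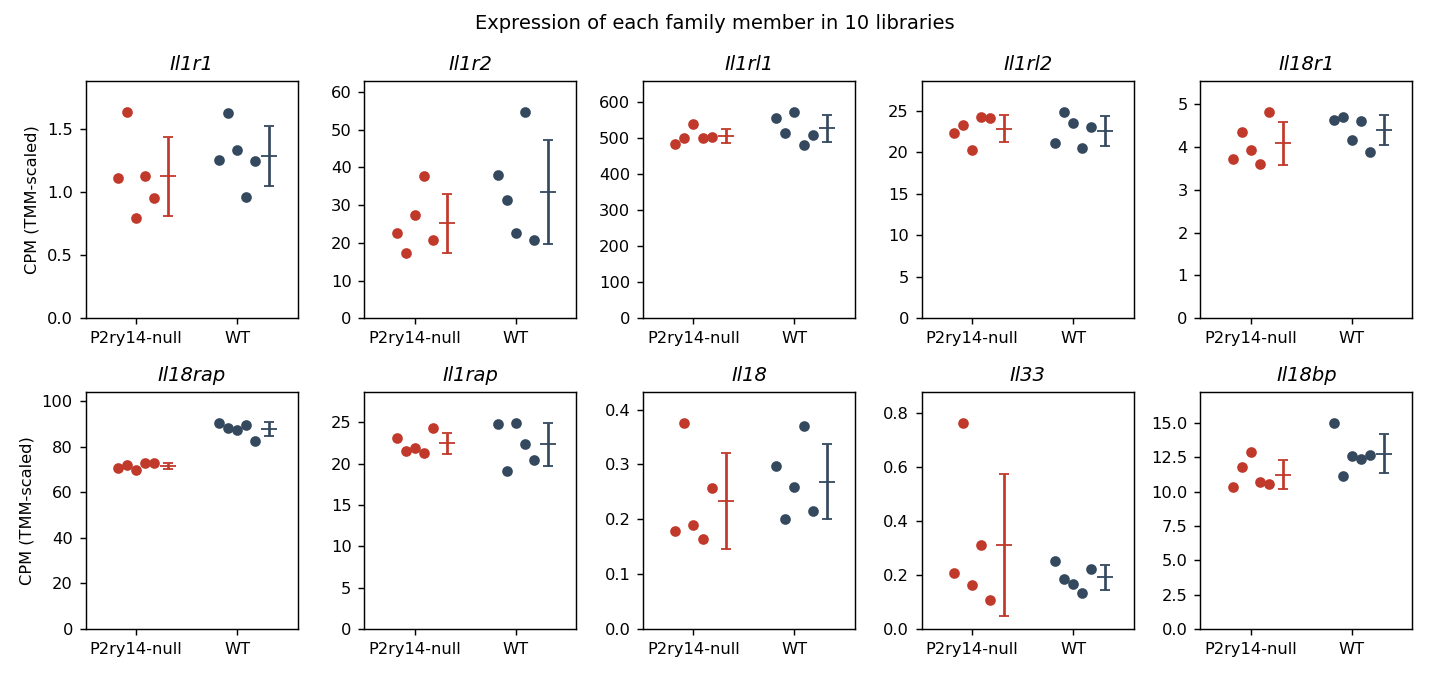
CPM (TMM-scaled) of each member in each library, with P2ry14-null (red) left of WT (dark blue); points are libraries 1 to 5 from left to right, and the bar gives the mean and SD. In Il18rap the 2 groups are apart (69.8 to 72.8 CPM in P2ry14-null, 82.5 to 90.6 CPM in WT), and in the 9 other members they overlap.

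The partner chain and the inhibitor of interleukin-18 did not pass. Il18r1 had 3.71, 4.35, 3.93, 3.60 and 4.81 CPM in P2ry14-null libraries and 4.64, 4.69, 4.16, 4.60 and 3.87 CPM in WT libraries, and the groups overlapped. Its log2 fold change was -0.10 ± 0.10 (SE). Il18bp had 10.3, 11.7, 12.9, 10.7 and 10.5 CPM in P2ry14-null libraries and 15.0, 11.1, 12.6, 12.4 and 12.6 CPM in WT libraries. In Il18bp 3 P2ry14-null libraries lay below the lowest WT library and the others overlapped. Its log2 fold change was -0.18 ± 0.08. The ligand Il18, at 12 to 58 reads per library, ranged from 0.163 to 0.376 CPM in P2ry14-null and from 0.201 to 0.371 CPM in WT. Its log2 fold change was -0.19 ± 0.26, running from -0.43 without P2ry14-null library 2 to -0.03 without WT library 4. The edgeR adjusted p of these 3 genes, and of each other member but Il18rap, was 0.999.

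The ST2 gene showed the smallest spread among the other members. Il1rl1 had 485, 502, 540.4, 501 and 503 CPM in P2ry14-null libraries and 557, 516, 573, 483 and 510.0 CPM in WT libraries. WT libraries 1 and 3 lay above every P2ry14-null library, WT library 4 lay below every one, and the others overlapped. The mean was 506 ± 20.6 CPM in P2ry14-null and 528 ± 36.8 CPM in WT, and the log2 fold change -0.06 ± 0.06 (SE). Group 2 innate lymphoid cells also carry ST2, and their 6 markers, all tested with 0 called and 0 at an unadjusted p under 0.05, summed to 13.8 to 50.8 CPM in P2ry14-null, or 13.8 to 18.9 CPM without library 2, and to 13.7 to 17.1 CPM in WT. Arg1 made up most of this sum in every library. It had 43.2 CPM in P2ry14-null library 2, at most 14.5 CPM in the other P2ry14-null libraries and 8.53 to 12.4 CPM in WT. Gata3, another of the 6, had 0.193 to 0.480 CPM in P2ry14-null and 0.201 to 0.288 CPM in WT. The sum is therefore mainly a level of Arg1. The part of group 2 innate lymphoid cells in the level of Il1rl1 was not tested. Il1rap, its accessory chain, ranged from 21.3 to 24.3 CPM in P2ry14-null and from 19.1 to 25.0 CPM in WT (log2 0.01 ± 0.08). Il1rl2, the interleukin-36 receptor, ranged from 20.3 to 24.3 CPM in P2ry14-null and from 20.5 to 24.9 CPM in WT (log2 0.02 ± 0.07).

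The decoy receptor Il1r2 varied most for its level. It had 22.6, 17.4, 27.4, 37.8 and 20.6 CPM in P2ry14-null libraries and 38.0, 31.5, 22.7, 54.7 and 20.8 CPM in WT libraries. Library 4 was highest in each group and the groups overlapped. Its SD within groups was 0.50 on the log2 scale, larger than in 99.8% of the 1748 genes within 0.5 log2 CPM of its level. The log2 fold change was -0.41 ± 0.26 (SE), at -0.61 when P2ry14-null library 4 was left out and -0.16 when WT library 4 was. Neutrophils are known for high Il1r2. Neutrophil markers, 7 of 8 tested with 1 below 0, summed to 3694 to 5393 CPM in P2ry14-null, highest in library 4, and to 3698 to 4637 CPM in WT, highest in library 1. Ly6g, S100a8 and Ngp, all higher on average in P2ry14-null, had an unadjusted p under 0.05 (all tested genes, 4.13%), and 0 were called by edgeR or DESeq2. Without P2ry14-null library 2, where S100a8 had 4.65 CPM, 2 of the 7 lay below 0. Ly6g and Ngp then had an unadjusted p under 0.05. Retnlg made up most of the neutrophil sum, while the neutrophil surface marker Ly6g had 1.22 to 2.18 CPM in P2ry14-null and 0.980 to 1.38 CPM in WT. The part of neutrophils in the level of Il1r2 was not tested. Il1r1, which signals for interleukin-1, ranged from 0.795 to 1.63 CPM in P2ry14-null and from 0.959 to 1.62 CPM in WT (log2 -0.19 ± 0.19, running from -0.37 without P2ry14-null library 2 to -0.07 without P2ry14-null library 3). In the fit without P2ry14-null library 2, Il1r1 had an unadjusted p under 0.05 (all tested genes, 636 of 15578) and was not called.

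**Figure D3:**
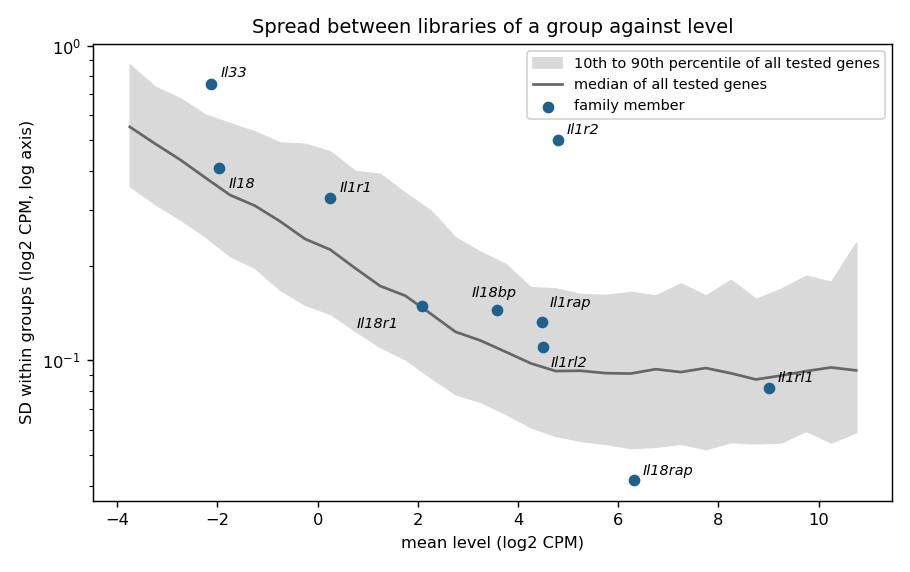
SD within groups (log2 CPM, log axis) against mean level (log2 CPM) for the 10 members, over the 10th to 90th percentile (grey band) and median (line) of all 15586 tested genes in bins of 0.5 log2 CPM. Il1r2 (SD 0.50) and Il33 (SD 0.75) lie above the band and Il18rap (SD 0.042) below it.

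The epithelial alarmin Il33 was low, at 14 to 118 reads per library, and stood out in 1 library. It had 0.207, 0.765, 0.163, 0.311 and 0.109 CPM in P2ry14-null libraries and 0.252, 0.184, 0.165, 0.134 and 0.223 CPM in WT libraries. P2ry14-null library 2 was the highest, and the other libraries of both groups overlapped. The log2 fold change was 0.73 ± 0.45 (SE) with that library and 0.03 without it. It is the library whose alveolar epithelial markers, 6 of 6 tested and all above 0, summed highest, with 0 called by edgeR or DESeq2 and 3 at an unadjusted p under 0.05 (all tested genes, 4.13%). Without that library 4 of the 6 lay above 0 and 0 had an unadjusted p under 0.05. The surfactant gene Sftpc, which defines alveolar type II cells, had 19.9 CPM there, against 1.17 to 3.06 CPM in the other 4 P2ry14-null and 1.46 to 2.81 CPM in WT libraries. The part of epithelial RNA in the Il33 reads was not tested.

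Over the 10 members, 3 had a log2 fold change above 0 and 7 below, with a median of -0.14. Over all tested genes, 7975 lay above 0 and 7611 below, with a median of 0.003. Signs of Il1rl2 and Il1rap turned when single libraries were left out.

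**Figure D4:**
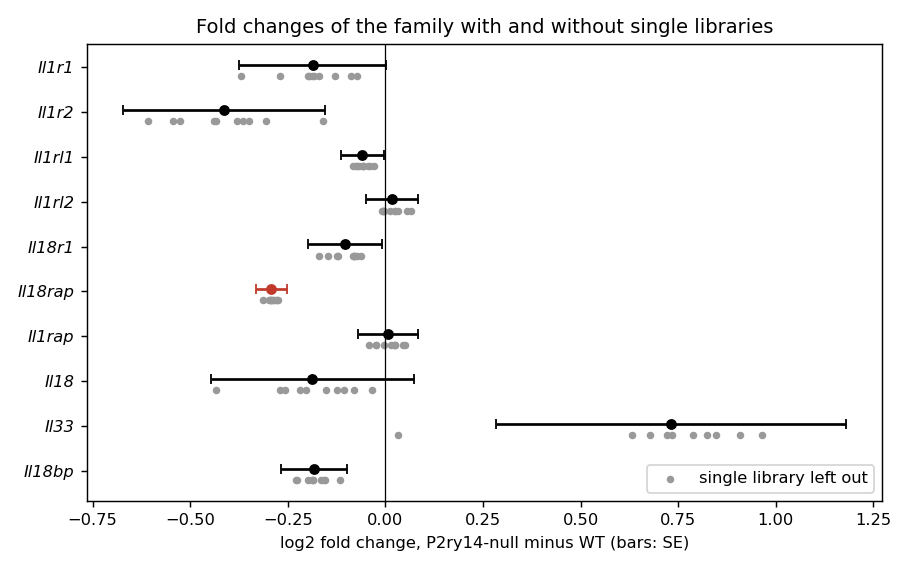
Log2 fold change (P2ry14-null minus WT) of each member with its SE (Il18rap, past the threshold, in red; the others in black) and, in grey, the values with each of the 10 libraries left out in turn. Il33 lies at 0.73, and at 0.03 without P2ry14-null library 2, and Il18rap stays between -0.31 and -0.27.

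The 6 clustered receptor genes span 468 kb of chromosome 1 (mm10, 40083308 to 40551707), all on the plus strand. Il18r1 (40465552 to 40500854) starts 0.133 kb after the end of Il1rl1 (40404864 to 40465418). Il18rap (gene ID 16174; 40515362 to 40551707), at the far end, follows Il18r1 after 14.5 kb. The fall in Il18rap was not matched by a call in any of its 5 neighbours within the cluster, though the difference between their fold changes was not tested. Of the genes within 500 kb of the cluster, the kinase gene Map4k4 had 73.7 CPM in P2ry14-null and 74.2 CPM in WT (log2 -0.01 ± 0.05), and Mfsd9 2.69 CPM in P2ry14-null and 2.53 CPM in WT (log2 0.09 ± 0.12). Creg2, Tmem182 and Slc9a4, which lies 28.0 kb beyond Il18rap, averaged 0.137 to 0.158 CPM in P2ry14-null and 0.133 to 0.176 CPM in WT. Slc9a4 lay at -0.12 on the log2 scale with P2ry14-null library 2 and at -1.28 without it. None of these 5 genes passed in edgeR (adjusted p = 0.999) or DESeq2, and 0 had an unadjusted p under 0.05. Without P2ry14-null library 2, 0 passed in edgeR and Slc9a4 alone had an unadjusted p under 0.05 (all tested genes, 636 of 15578).

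**Figure D5:**
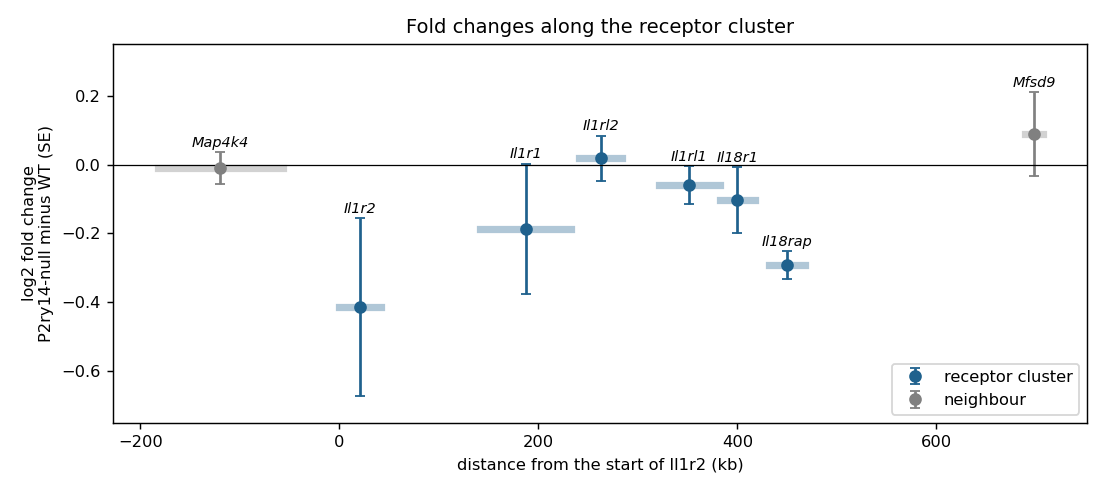
Log2 fold change (P2ry14-null minus WT, with SE) of the 6 clustered receptor genes and of the neighbours within 500 kb that averaged at least 1 CPM, against distance from the start of Il1r2 in kb; pale bars give each gene's extent. Il18rap at the right end of the cluster lies at -0.29, while Il18r1 beside it lies at -0.10 and Map4k4 and Mfsd9 outside the cluster at -0.01 and 0.09.

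Whether the chains of a receptor varied together from library to library, apart from genotype, was asked in 4 pairs, on log2 CPM with group means removed. Il18r1 and Il18rap had Pearson's r = 0.609 over the 10 libraries (permutation within groups, p = 0.042, adjusted over the 4 pairs 0.169) and Spearman's rho = 0.539 (permutation p = 0.109, adjusted 0.435). Without the 2 libraries farthest from the median of Il18r1, P2ry14-null library 5 and WT library 5, r was 0.454. The pair passed the adjusted threshold without P2ry14-null library 4 (r = 0.808, permutation adjusted p = 0.020) and in none of the other fits with a library left out. Il1rl1 and Il1rap had r = 0.453 (permutation p = 0.313, adjusted 0.421) and rho = 0.479 (permutation p = 0.252, adjusted 0.505), with r = 0.404 without WT libraries 3 and 4. Il1r1 and Il1rap had r = -0.318 (permutation p = 0.347, adjusted 0.421) and rho = -0.200 (permutation p = 0.580, adjusted 0.580), with r = -0.438 without P2ry14-null libraries 2 and 3. Il1rl2 and Il1rap had r = -0.309 (permutation p = 0.421, adjusted 0.421) and rho = -0.333 (permutation p = 0.389, adjusted 0.519), with r = -0.554 without P2ry14-null library 3 and WT library 4. No pair passed over all 10 libraries. Within the single groups, whose 5 libraries are too few for a correlation to be reported, the sign of r differed between P2ry14-null and WT for Il1rl1 with Il1rap and for Il1rl2 with Il1rap.

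The genes whose level followed Il18rap most closely from library to library, with group means removed, were not members. Among 8480 genes of at least 5 CPM, the highest Pearson's r over the 10 libraries were those of the mitochondrial peroxidase Prdx3 (0.886), Zfp422 (0.876), Ovca2 (0.853), Abhd10 (0.852) and the fumarase gene Fh1 (0.847). These are descriptions, taken as the highest of many over libraries that share their sorting and depth. The 5 had log2 fold changes between -0.05 and -0.01.

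The other ligands of the family were measured beside their receptors. Il1rn, the interleukin-1 receptor antagonist, averaged 5801 ± 715 CPM in P2ry14-null and 6171 ± 627 CPM in WT (SD, n = 5 each), and interleukin-1 beta (Il1b) 1149 ± 265 CPM in P2ry14-null and 1182 ± 102 CPM in WT. Il1a averaged 154 ± 30.1 CPM in P2ry14-null and 180 ± 34.5 CPM in WT. The log2 fold change was -0.09 ± 0.09 for Il1rn, -0.04 ± 0.14 for Il1b and -0.23 ± 0.14 for Il1a (SE). The interleukin-36 gamma gene, listed as Il1f9, had 0.616 CPM in P2ry14-null library 2, against 0.0388 to 0.0897 CPM in the other P2ry14-null and 0.0610 to 0.109 CPM in WT libraries. Its log2 fold change was 1.00 with that library and -0.54 without it. The other 4 genes of this list of 8 did not pass the filter, with at most 3 reads in a library. Sigirr, an inhibitory receptor of the family, had 5.75 CPM in P2ry14-null and 5.97 CPM in WT (log2 -0.05 ± 0.10), and 0 of the 4 tested ligand genes passed in edgeR or DESeq2 or had an unadjusted p under 0.05.

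Genes downstream of the receptors did not pass either. Of 16 adaptor, kinase and ubiquitin ligase genes, all tested, 6 lay above 0 and 10 below (median log2 fold change -0.02), and 0 were called by edgeR or DESeq2 or had an unadjusted p under 0.05. The adaptor Myd88 had 104 CPM in P2ry14-null and 112 CPM in WT (log2 -0.10 ± 0.07, and -0.03 without WT library 1), and the ubiquitin ligase Traf6 49.5 CPM in P2ry14-null and 51.3 CPM in WT (-0.05 ± 0.04). The ubiquitin-conjugating enzyme gene Ube2n lay at -0.07 ± 0.05 and the inhibitory kinase homologue Irak3 at -0.07 ± 0.06. Of 14 genes of the NF-kB and MAP kinase arm, 6 lay above 0 and 8 below (median -0.05), and 0 were called by edgeR or DESeq2. The NF-kB inhibitor Nfkbia had 2586 CPM in P2ry14-null and 3144 CPM in WT (log2 -0.28 ± 0.08) and Tnfaip3, a feedback inhibitor of NF-kB, 4141 CPM in P2ry14-null and 4744 CPM in WT (-0.20 ± 0.07). These and Rela (-0.11 ± 0.05) were the 3 with an unadjusted p under 0.05, against 4.13% of all tested genes. Rela was no longer among them when P2ry14-null library 2 was left out (all tested genes, 636 of 15578). Of the 3, only Nfkbia had groups that did not overlap, against 0.648% of all tested genes. The p38 kinase gene Mapk14 lay at -0.08 ± 0.06. Of 10 genes that mature interleukin-1 beta and interleukin-18, 4 lay above 0 and 6 below (median -0.04), with 0 called by edgeR or DESeq2 and 0 at an unadjusted p under 0.05. Casp1, the protease that cleaves both cytokines, lay at -0.10 ± 0.08, and at -0.02 without WT library 1. The inflammasome sensor Nlrp1b lay at 0.07 ± 0.07, the inflammasome adaptor Pycard at -0.06 ± 0.06 and the apoptotic protease Casp8 at 0.04 ± 0.04.

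Cytokines and chemokines that leukocytes secrete after signals of this family lay below WT without passing the test. Of 11, Il5 did not pass the filter, and all 10 tested had a log2 fold change below 0 (median -0.24), with 0 called by edgeR and 4 at an unadjusted p under 0.05, against 4.13% of all tested genes. Il6 averaged 43.4 ± 9.86 CPM in P2ry14-null and 71.0 ± 12.5 CPM in WT (SD, n = 5 each; log2 -0.71 ± 0.16, edgeR adjusted p = 0.568). Its 5 P2ry14-null libraries, from 31.8 to 54.0 CPM, lay below its 5 WT libraries, from 54.5 to 82.3 CPM. Of all tested genes, 0.648% had groups that did not overlap. DESeq2 called Il6 alone of the 10 (adjusted p = 0.0028), and 18 of all 15586 tested genes. Csf2, which encodes GM-CSF, lay at -0.68 ± 0.21, Tnf at -0.39 ± 0.12 and the chemokine gene Ccl3 at -0.29 ± 0.11. Csf2 was low, at 23 to 127 reads per library, and its groups overlapped. Without WT library 4, Csf2 lay at -0.51, Tnf at -0.23 and Ccl3 at -0.21. Heat shock and early genes, 8 of 8 tested, had 7 below 0 (median log2 fold change -0.53), 0 called by edgeR, 6 at an unadjusted p under 0.05 and Dnajb1 called by DESeq2. The chaperone genes Hspa1b and Hspa1a lay at -1.43 ± 0.43 and -1.16 ± 0.37. The early gene Egr1 averaged 418 CPM in P2ry14-null and 677 CPM in WT (log2 -0.70 ± 0.18). Groups did not overlap for Egr1 and Dnajb1 (all tested genes, 0.648%), and overlapped for the rest of this list. Fos lay at 0.01 ± 0.07 and Jun at -0.12 ± 0.12. The list, most of it the early gene Fos (2457 CPM in P2ry14-null, 2441 CPM in WT) and Jun, summed to 3861 to 5297 CPM in P2ry14-null and 4620 to 5639 CPM in WT. Their part in the values of these cytokines was not tested.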

How the data were processed

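RNA from sorted lung eosinophils was sequenced in 5 P2ry14-null and 5 WT libraries. The values are raw counts of reads per gene in 1 table that the authors deposited. STAR 2.5, featureCounts 1.5.0-p1 of Subread, DESeq2 and the build mm10 are named in the submitters' processing notes. The sources used here do not state the annotation release, the strand setting or how reads matching several places were counted. Columns were matched to samples by title, and every pair of libraries in a group differed beyond sampling noise (chi-square of at least 22.2 per gene).

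edgeR 4.0.16 (R 4.3.3) was run on the counts of all genes with genotype as the only term, scaled by TMM and filtered by filterByExpr, and the quasi-likelihood test was adjusted by Benjamini-Hochberg over 15586 genes (threshold 0.05). SE was taken as the size of the log2 fold change over the root of its F value. The common biological coefficient of variation was 12.3%. Log2 CPM used a prior count of 2, and correlations 100000 permutations within groups. A count of 3 reads, the limit that 0 allows, is 0.0447 CPM in the shallowest and 0.0162 in the deepest library, for counting error only. Levels per kilobase used the union of GENCODE vM21 exons, matched by symbol for all 10 members. The fit was tested on simulated data. Alternatives were other scaling factors and filters, DESeq2 1.42.0, robust dispersion, a replicate block and single libraries left out.

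Members and gene lists were chosen with earlier results of these data known. Named genes were all members, up to 4 per list with the smallest p, genes near the cluster, and the 5 most like Il18rap. Hdc, Cpa3, Cma1, Kit, Mcpt4, Tpsb2, Epx, Prg3, Arg1, Gata3, Ly6g, S100a8, Ngp, Retnlg and Sftpc were named as markers beside results. So were Dnajb1, Hspa1a, Hspa1b, Fos, Jun and Egr1. These markers were chosen after their values were seen. Mouse symbols Il1f5, Il1f6, Il1f8 and Il1f9 stood for the interleukin-36 genes.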

Additional observations from a re-analysis of the deposited data

Results flagged for a closer look

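Among 72 sets of 5 libraries (36 genes in each genotype), 7 held a library whose gap to the next exceeded Dixon's limit for 5 values (0.71 of the range). Chance flags about 1 in 20 sets. None was in the 10 family members. P2ry14-null library 2 had 0.616 CPM of Il1f9, against 0.0388 to 0.0897 CPM in the other 4 P2ry14-null libraries. It also had 0.448 CPM of Slc9a4, against 0.0340 to 0.0889 CPM. WT library 1 had 133 CPM of Myd88, against 103 to 108 CPM in the other WT libraries, and 38.0 CPM of Casp1, against 27.5 to 30.05 CPM. WT library 4 had 37.9 CPM of Tnf, against 23.7 to 25.6 CPM. P2ry14-null library 3 had 107 CPM of Rela, against 97.5 to 99.9 CPM in the other P2ry14-null libraries. WT library 5 had 0.0845 CPM of Tmem182, against 0.182 to 0.218 CPM in the other WT libraries.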

How the results depend on the processing

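The edgeR count of 2 genes called higher and 4 lower in P2ry14-null became 7 and 11 with DESeq2, and 1 and 5 with the replicate block. It was 2 lower with a filter at a mean of 1 CPM. With single libraries left out, 1 to 2 were called higher and 2 to 4 lower. The labels do not say whether replicate numbers pair libraries. Correlations of same-numbered deviations over all genes ran from -0.093 to 0.094, and 2 of 10 libraries correlated best with their own number. These values show no pairing but cannot exclude it, since most genes may vary by noise alone. With the block, Il6 (edgeR adjusted p = 0.0013) and Hdc passed. Il18rap kept its direction in all 18 alternatives and passed in 9. It missed the threshold with raw library totals (-0.26), with the replicate block (-0.29, adjusted p = 0.187) and in 7 of 10 fits with a library left out, over a range of -0.31 to -0.27. The cause was not tested, though fewer libraries also leave fewer degrees of freedom. None of the 9 other members passed in any alternative. Among pairs, r of Il18r1 with Il18rap ran from 0.431 to 0.808 with libraries left out, and that of Il1rl2 with Il1rap from -0.492 to 0.061, changing sign without WT library 2; the cause was not tested. At this depth Il18, Il33, Il1f9 and Csf2 rested on at most 127 reads in a library, which limits what can be seen in them.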
